A study of Mus musculus with 6 samples.

Results

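The histone cluster genes are the array's gene names that begin with Hist1h, Hist2h, Hist3h or Hist4h, taken from the probes that are not controls. They numbered 56 of the 37074 gene names on the array and were read by 68 of its 56605 probes. By the letters of the name, 6 are of type H1, 18 of H2A, 14 of H2B, 9 of H3 and 9 of H4, pseudogenes included. The comparison was made in liver RNA of nude mice, an athymic strain, with 1 liver on each of 6 one-colour Agilent arrays. The 3 control livers came from mice given sterile PBS. The 3 sEV livers came from mice given small extracellular vesicles, membrane particles shed by cells, that had been purified from the human colorectal cancer line SW620. Vesicles were given into the tail vein as 10 injections of 20 µg over 21 days, and each group held 5 mice, of which 3 were arrayed, the sEV ones picked at random. Sex and age are not in the labels, and the controls were not given vesicles of any other cell.

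H2A, H2B, H3 and H4 form the protein core of the nucleosome, around which DNA is wound, and H1 binds the linker DNA between cores. The clustered genes are for the most part replication-dependent: their short, intronless transcripts are made chiefly in S phase, when new DNA has to be packed, and end in a conserved stem-loop instead of a poly(A) tail. Some clustered genes also give polyadenylated transcripts in cells that have left the cycle, as most hepatocytes of an adult liver have. Because the copies of 1 histone type code for nearly the same protein, probes for different copies can share most of their letters.

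Levels are given as normalized log2 signal, which is the log2 of a probe's background-subtracted signal minus the 75th percentile of its array, so that 0 is the level of a probe at that percentile. Differences are log2 fold changes, sEV minus control, with the standard error (SE) of the limma fit over all 19446 genes tested, and a gene passed at a Benjamini-Hochberg adjusted p under 0.05 over all of them. To be tested, a gene needed a probe whose signal was well above background on 3 or more arrays of the 6, and the brightest such probe was used. Levels of different probes are not compared with each other, since probes differ in brightness for the same amount of RNA. Between 49.9% and 54.7% of spots were well above background on an array. All arrays shared 1 slide and 1 scan, but the controls and sEV 1 lay in slide row 1 and sEV 2 and sEV 3 in row 2. Beyond what is given above, the labels do not say how the mice were housed or sampled. The limma p-values set each difference against the spread between these livers, pooled in part over genes.

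Of the 56 genes, 45 were tested. Vesicle-treated livers had lower signal for 13 and higher signal for 5, and 27 did not pass. Of the 13 lower genes, 8 were well above background in both groups and fell by 0.46 to 1.90 on the log2 scale. The other 5 (Hist1h2bq, Hist1h3g, Hist1h2bg, Hist1h2bf and Hist1h2ai) were well above background on no sEV array. The size of their fall has only a lower bound, from 1.37-fold to 2.69-fold under the main processing. Such a bound has no error attached. Across the alternatives given at the end, the smallest log2 fold changes of these 5 ran from -0.23 to -0.77, each smaller than its bound. The 5 higher genes rose by 0.36 to 0.71. Among all genes tested, 17.0% passed in either direction, 7.95% lower and 9.08% higher, against 28.9% lower and 11.1% higher among the 45. The 5 genes with bounds met the filter through the control arrays alone, so for them being tested went with being lower. Only 8 of the 13 lower genes were tested when probes had to be well above background on all 6 arrays. With arrays scaled to their median instead, the higher share of all calls was 36.9% in place of 53.3%, and 2 histone genes in place of 5 were higher. The median log2 fold change of the 45 was -0.02, beside 0.03 over all genes tested, so that the lower genes were a part of the set and not its centre. The 3 livers of one group lay wholly below or above those of the other for 24 of the 45 genes (53.3%), 13 lower and 11 higher. For the 5 genes with bounds this order rests in part on signal not above background. Over all genes tested that share was 40.9%, 18.0% lower and 22.9% higher. In bulk liver, fewer cells of a type and less RNA per cell cannot be told apart.

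**Figure D1:**
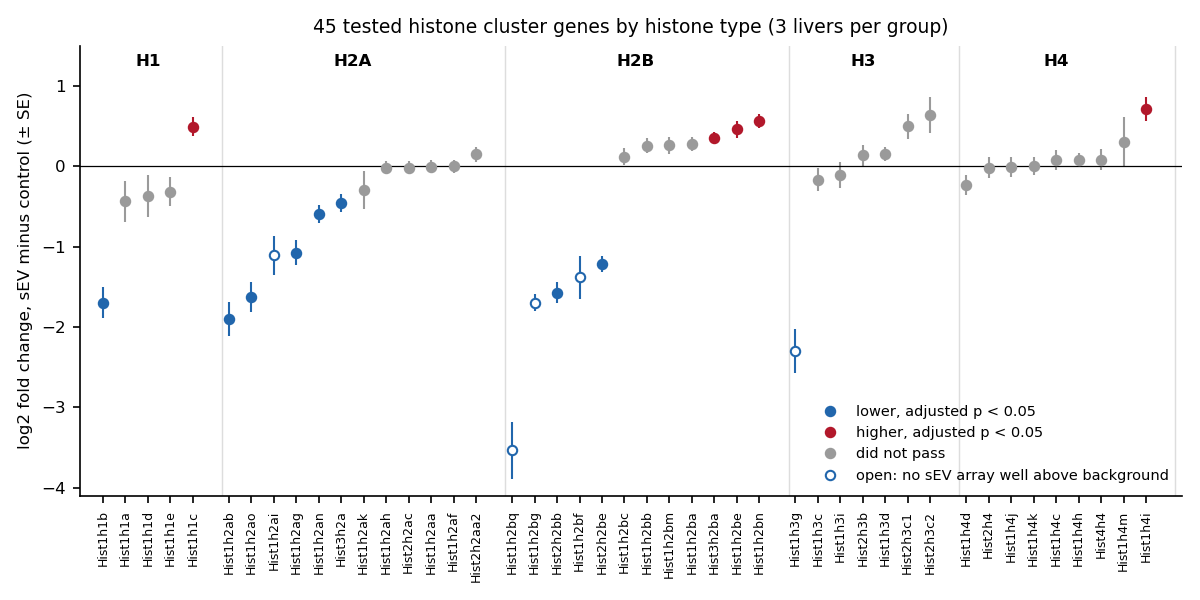
Log2 fold change (sEV minus control, vertical axis) of the 45 tested histone cluster genes, 3 livers per group, grouped by histone type; bars are the SE of the limma fit and colours mark genes lower, higher or not past an adjusted p of 0.05. Open points are the 5 genes that were well above background on no sEV array, whose fitted values are not sizes. Filled lower points fall in H1, H2A and H2B, with Hist1h2ab the lowest of them at -1.90. The only lower H3 gene, Hist1h3g, is an open point, while 8 of the 9 H4 genes lie near 0 and did not pass.

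The counts differed by histone type, although that difference was not tested. Of the tested genes, H2A had 6 lower and 0 higher of 12 and H2B 5 lower and 3 higher of 12. H1 had 1 lower and 1 higher of 5, H3 1 lower and 0 higher of 7, and H4 0 lower and 1 higher of 9. The lower counts include the genes that met the filter through the control arrays alone. These were 1 of H2A (Hist1h2ai), 3 of H2B (Hist1h2bq, Hist1h2bg and Hist1h2bf) and the 1 of H3 (Hist1h3g), all in the Hist1 cluster. The median log2 fold change was -0.37 for H1, -0.38 for H2A, 0.18 for H2B, 0.13 for H3 and 0.07 for H4. The H4 median was -0.005 with arrays scaled to their median, and the H3 median was -0.11 with no filter on dim probes, over more genes. With slide row as a block the H1, H3 and H4 medians were -0.86, -0.075 and -0.092. By cluster, the Hist1 cluster, on mouse chromosome 13, had 10 lower and 4 higher of 34 tested. The Hist2 cluster, on chromosome 3, had 2 lower and 0 higher of 8. Of the 2 tested genes of Hist3, on chromosome 11, 1 was lower and 1 higher, and the single Hist4 gene, Hist4h4, did not pass (0.08 ± 0.13).

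The remaining 11 genes were too dim to test, and nothing is drawn from their values. Hist1h1t, the testis form of H1, was well above background on 0 arrays, as were Hist1h2ac, Hist1h2ad, Hist2h2aa1 and Hist2h2ab. So were Hist1h2al, which RefSeq lists under the pseudogene symbol H2af-ps2, and the pseudogene Hist3h2bb-ps. Hist1h2ae and Hist1h3a reached that level on 2 arrays each, and Hist1h2bp and Hist1h3f on 1 each. So 6 of the 18 H2A genes, 2 of the 14 H2B genes, 2 of the 9 H3 genes and 1 of the 6 H1 genes have no fold change here.

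Among the linker histones, Hist1h1b (RefSeq symbol H1f5), which codes for the H1.5 subtype, stood at 0.45, 0.13 and -0.0038 in the controls and at -1.58, -1.15 and -1.78 in the sEV livers. No sEV liver reached a control. It fell by 1.70 ± 0.20 (limma adjusted p = 0.0051), or 3.24-fold. Its probe lies on chromosome 13 of mm9, the build of the array design, at chr13:21871923-21871982 on the minus strand. Hist1h1c (H1f2), which codes for H1.2, went the other way. Its values were 3.02, 3.19 and 3.14 in the controls and 3.42, 3.60 and 3.79 in the sEV livers, a rise of 0.49 ± 0.12 (adjusted p = 0.037), and its dimmer probe rose by 0.55 ± 0.13. The Hist1h1c groups did not overlap, but the gap between sEV 1 and control 2 was small. Leaving out control 1, control 2, control 3, sEV 2 or sEV 3 ended this call (adjusted p = 0.111, 0.0787, 0.0968, 0.0933 and 0.0887), as did scaling to the median (0.0663).

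The other 3 linker histone genes did not pass, and their groups overlapped. Hist1h1e differed by -0.32 ± 0.18. The values of Hist1h1a and Hist1h1d were the lowest log2 fold changes among the histone cluster genes that did not pass, at -0.44 ± 0.25 and -0.37 ± 0.26. In both, sEV 1 was the lowest liver of all 6 (-3.77 for Hist1h1a and -2.61 for Hist1h1d), and sEV 3 lay within the range of the controls (-2.82 and -1.79).

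Some of the H2A probes are shown next because several of them share most of their letters. Each probe is 60 bases long and is printed 5′ to 3′. Capitals mark letters that differ from the Hist1h2ah probe, or that run past its end, when the probes are laid over each other without gaps.
Hist1h2ah: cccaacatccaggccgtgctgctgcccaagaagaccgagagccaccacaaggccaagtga
Hist1h2af: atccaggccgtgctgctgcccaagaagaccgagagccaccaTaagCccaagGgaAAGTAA
Hist1h2ak: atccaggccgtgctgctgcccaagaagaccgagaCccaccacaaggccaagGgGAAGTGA
Hist2h2aa2: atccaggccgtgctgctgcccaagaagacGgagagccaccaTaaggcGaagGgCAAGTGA
Hist1h2an: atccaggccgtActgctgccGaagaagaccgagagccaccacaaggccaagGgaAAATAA
Hist1h2ag: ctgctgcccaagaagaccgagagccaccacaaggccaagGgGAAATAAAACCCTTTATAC
Hist1h2ao: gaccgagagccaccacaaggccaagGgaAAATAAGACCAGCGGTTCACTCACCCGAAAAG
The probe of Hist1h2ah ends at the stop codon of the gene, so that it reads coding sequence which most H2A copies share. The probes of Hist1h2ag and Hist1h2ao reach further, into letters behind the stop codon that the Hist1h2ah probe does not hold. Counted over all 68 member probes, the Hist1h2ah, Hist1h2af, Hist1h2ak, Hist1h2aa, Hist1h2an, Hist2h2aa2 and Hist2h2ac probes each had at least 50 letters identical to a probe of another member. Which copy gave the signal cannot be told apart. The count covers probes and not whole histone transcripts, so a probe with fewer shared letters need not read 1 copy alone. The array design lists 2 RefSeq entries for the Hist1h2ao and Hist1h2bf probes. For the brighter probes of Hist1h2bb and Hist1h4k and the probes of Hist1h2bm and Hist1h3d it lists 4 each.

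Of those 7 H2A genes with shared probes, 1 was lower and 6 did not pass (median -0.02 on the log2 scale). All 7 gave bright signals, between 5.50 and 7.01 in the control mean. Hist2h2aa2 stood at 6.92, 7.12 and 6.99 in the controls and at 7.19, 7.20 and 7.09 in the sEV livers (0.15 ± 0.09, adjusted p = 0.302). Hist1h2af differed by -0.0021 ± 0.08, Hist1h2ah by -0.02 ± 0.08 and Hist2h2ac by -0.02 ± 0.08. Hist1h2aa, a gene known for its expression in testis, gave -0.01 ± 0.08 on a probe with 54 letters in common with another member. Hist1h2ak had 1 low liver: it was at 6.60 and 6.68 in sEV 1 and sEV 2 and at 5.78 in sEV 3.

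The 5 H2A genes with under 50 shared letters were all lower, on all 6 of their kept probes, with a median of -1.09 (-1.06 with Hist1h2ai at its bound). That limit of 50 letters was chosen after the values were seen, and the split was not tested. Hist1h2ab (H2ac4) fell most. It stood at 3.06, 2.76 and 2.58 in the controls and at 0.78, 1.31 and 0.59 in the sEV livers, and the groups lay more than 1 unit apart. The gene fell by 1.90 ± 0.21 (adjusted p = 0.0048), or 3.74-fold, on a probe at chr13:23843392-23843451 of mm9. Hist1h2ao was at 5.73, 5.32 and 5.23 in the controls against 3.68, 4.09 and 3.62, and fell by 1.63 ± 0.18 (adjusted p = 0.0047). Hist1h2ag was at 5.74, 5.50 and 5.36 against 4.32, 4.73 and 4.33, and fell by 1.08 ± 0.15 (adjusted p = 0.0096). Neither gene's groups overlapped, although the Hist1h2ag probe shares 46 letters with that of Hist1h2an.

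Hist1h2an, the called gene with a shared probe, showed a smaller difference. Its controls were at 5.63, 5.47 and 5.40 and its sEV livers at 4.82, 5.08 and 4.82, and it fell by 0.59 ± 0.11 (adjusted p = 0.020). Hist1h2ai was dim, at -2.31, -3.02 and -3.27 in the controls, and no sEV liver had it well above background. In the fit it fell by 1.11 ± 0.24 (adjusted p = 0.028), and the signal was at least 1.71-fold lower; such a bound sets the control mean against the mean of, per sEV array, the probe's own value or the lowest signal well above background there, whichever is higher. The array design places the Hist1h2ai, Hist1h2an and Hist1h2ao probes within 1 stretch of 111 bases, chr13:21902669-21902779 of mm9, while RefSeq places the 3 genes apart on GRCm38.p6. It also gives the Hist1h2ai probe a span of 74 bases and the Hist1h2ag probe one of 59681 bases, which no probe of 60 letters can read as 1 piece. Which places these probes read was not tested. Calls were lost for Hist1h2an without control 1, control 2 or sEV 3 (adjusted p = 0.0617, 0.0586 and 0.0621), and for Hist1h2ai without control 2, sEV 1, sEV 2 or sEV 3 (0.0678, 0.0609, 0.0751 and 0.0705) and with normexp background correction (0.145). The H2A median was -0.21 without sEV 3.

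Hist3h2a had 2 kept probes, and they gave different sizes. On the brighter one the controls stood at 3.62, 3.59 and 3.45 and the sEV livers at 3.05, 3.26 and 2.97, and the gene fell by 0.46 ± 0.11 (adjusted p = 0.035). The dimmer one gave -1.04 ± 0.17. The call on the brighter probe was lost without control 1, control 2, control 3, sEV 1 or sEV 3 (adjusted p = 0.106, 0.0971, 0.0664, 0.0772 and 0.0997).

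**Figure D2:**
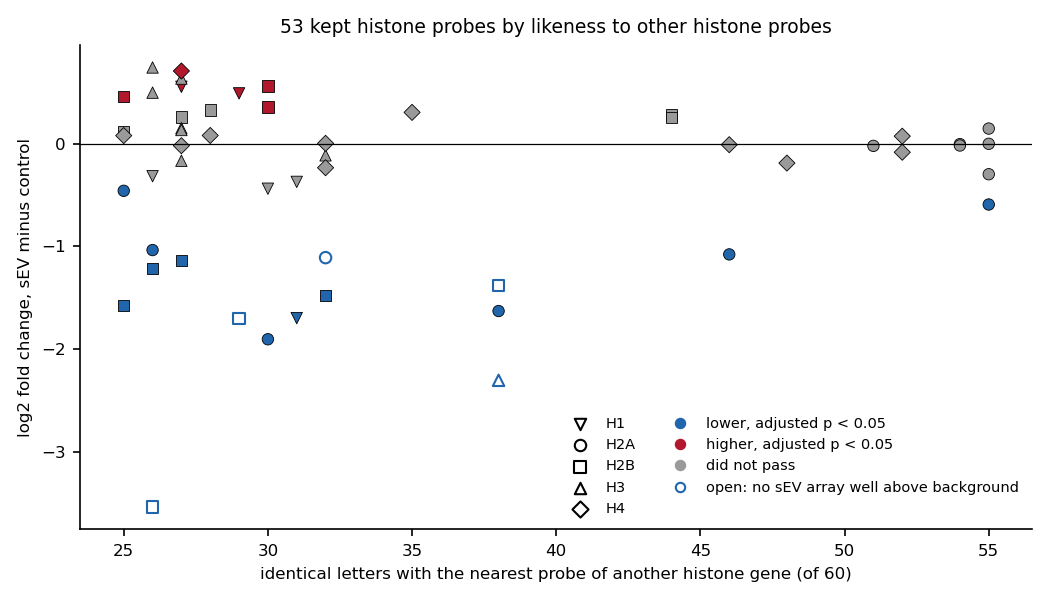
Log2 fold change (sEV minus control, vertical axis) of the 53 kept histone probes against the number of letters, of 60, identical to the nearest probe of another histone cluster gene (horizontal axis); shapes give the histone type and colours the call, each probe fitted on its own. The 9 probes with at least 50 shared letters, 7 of them H2A, lie between -0.59 and 0.15, while the lower probes with larger changes all share fewer letters. Letters were compared between probes only, so few shared letters do not mean that a probe reads a single copy. Open points are probes that were well above background on no sEV array.

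Over all types, 9 kept probes had at least 50 shared letters, of which 1 was lower and 8 did not pass. Each probe fitted on its own, 14.1% of the 28765 kept probes of the array passed, 6.49% lower and 7.62% higher, and of the 53 kept histone probes 16 were lower and 6 higher. For 8 genes a further probe was kept, and it gave the same call as the brighter probe in all 8. The sign differed in Hist1h4k alone, with 0.0025 ± 0.12 and -0.08 ± 0.11.

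Among the H2B genes, the controls of Hist1h2bq (H2bc23) stood at -1.68, -2.36 and -2.60 and the sEV livers at -6.27, -5.88 and -5.09, where no array had the probe well above background. In the fit it fell by 3.54 ± 0.36 (adjusted p = 0.0036), and the signal was at least 2.69-fold lower. Hist2h2bb (H2bc18), in the Hist2 cluster, was at 0.76, 0.50 and 0.43 against -0.90, -1.20 and -0.94. It fell by 1.58 ± 0.13 (adjusted p = 0.0018), and its dimmer probe gave -1.48 ± 0.20. Hist2h2be (H2bc21), an H2B variant gene known for expression in cells that do not divide, was at 1.24, 1.20 and 1.05 against -0.19, 0.03 and -0.0040. It fell by 1.22 ± 0.10 (adjusted p = 0.0017), and its dimmer probe gave -1.14 ± 0.12. In Hist2h2bb and Hist2h2be each sEV liver lay at least 1 unit below each control.

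Hist1h2bg (H2bc8) was at -2.73, -2.97 and -2.97 in the controls and at -4.67, -4.47 and -4.64 in the sEV livers, and in the fit it fell by 1.70 ± 0.11 (adjusted p = 0.00064). No sEV array was well above background, and under the main processing the signal was at least 1.68-fold lower. Hist1h2bf stood at -2.00, -2.63 and -2.91 against -4.23, -3.57 and -3.88, again with no sEV array well above background. In the fit it fell by 1.38 ± 0.27 (adjusted p = 0.022), and the signal was at least 2.17-fold lower. These 2 genes and Hist1h2bq carry large fitted differences on dim probes, so the bound is the size that the signal allows under the main processing. For Hist1h2bf the call was lost without control 2 or sEV 3 (adjusted p = 0.0631 and 0.0621), with normexp background correction (0.0634) and with the replicate number as a block (0.0564).

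The 3 higher H2B genes changed less. Hist1h2bn (H2bc15) was at 4.78, 4.68 and 4.75 in the controls and at 5.32, 5.17 and 5.40 in the sEV livers, a rise of 0.56 ± 0.09 (adjusted p = 0.0141). Hist1h2be (H2bc6) was at -1.86, -1.60 and -1.77 against -1.28, -1.38 and -1.20, a rise of 0.46 ± 0.10 (adjusted p = 0.031). Hist3h2ba was at -2.91, -2.88 and -2.83 against -2.51, -2.56 and -2.48, a rise of 0.36 ± 0.08 (adjusted p = 0.0266). All 3 had groups apart, by small margins next to those of the lower genes. The Hist1h2bn call held with each liver left out in turn. That of Hist1h2be was lost without control 1, control 3, sEV 1, sEV 2 or sEV 3 (adjusted p = 0.0903, 0.0952, 0.0651, 0.0586 and 0.092), and that of Hist3h2ba without any 1 liver (0.0552 to 0.0839). Scaling to the median also ended both (0.0818 and 0.0986).

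The other 4 H2B genes did not pass, and all had positive fold changes. Hist1h2bc stood at 6.40, 6.70 and 6.44 in the controls and 6.57, 6.61 and 6.70 in the sEV livers (0.12 ± 0.11). Hist1h2bb, Hist1h2bm and Hist1h2ba gave 0.25 ± 0.10, 0.26 ± 0.10 and 0.28 ± 0.09, each with all sEV livers above all controls. Hist1h2ba is, like Hist1h2aa, known as a testis gene.

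**Figure D3:**
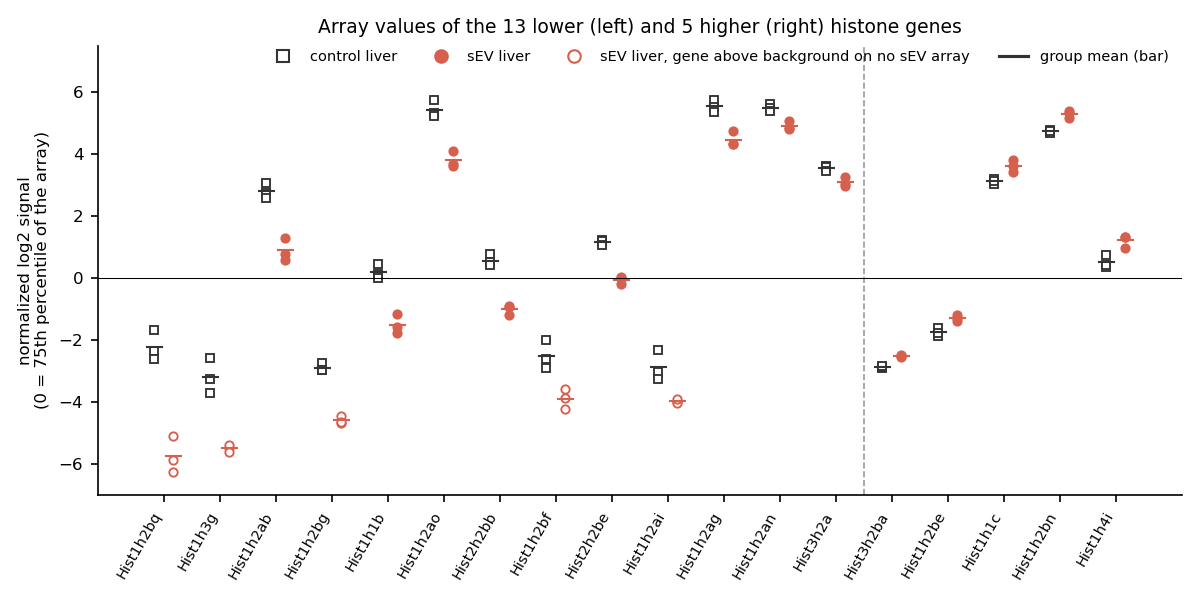
Normalized log2 signal (vertical axis, 0 at the 75th percentile of the array) of the 18 called histone genes in each liver; open squares are the 3 controls, filled circles the 3 sEV livers, bars the group means, and the dashed line separates the 13 lower from the 5 higher genes. Open circles are sEV livers of the 5 genes that were well above background on no sEV array. Values are drawn as measured, and as drawn the groups lie apart in all 18 genes. In a separate count, not drawn, each value below the lowest well-measured signal of its array was raised to it. The groups were then apart in 17 of the 18 genes, all but Hist1h3g. Gaps were wide for Hist1h2ab and Hist2h2bb and narrow for Hist3h2a and the higher genes. The 18 genes were called on these same values, so that their groups lie apart is no separate support for the calls.

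Of the 7 tested H3 genes, Hist1h3g (H3c8) alone passed. Its controls were at -2.59, -3.26 and -3.72 and its sEV livers at -5.49, -5.38 and -5.60, where no sEV array was well above background. In the fit it fell by 2.30 ± 0.27 (adjusted p = 0.0055), but the signal was at least 1.37-fold lower and no more can be said. Control 3 lay below the lowest well-measured signal of sEV 2 and sEV 3 (-3.60 and -3.38), and normexp background correction ended the call (adjusted p = 0.0642). Hist1h3d gave 0.15 ± 0.09. The highest log2 fold changes among the histone cluster genes that did not pass were those of Hist2h3c2 and Hist2h3c1, neighbouring H3 genes of the Hist2 cluster. Hist2h3c2 was at 0.79, 1.59 and 1.51 in the controls and at 1.83, 1.85 and 2.10 in the sEV livers (0.63 ± 0.22, adjusted p = 0.103), with 0.74 ± 0.22 on its dimmer probe. Hist2h3c1 was at 0.86, 1.33 and 1.26 against 1.63, 1.47 and 1.84 (0.50 ± 0.16, adjusted p = 0.0814). In both genes control 1 was the lowest liver and all sEV livers lay above all controls. A limma fit with a trended, robust variance brought Hist2h3c1 past the threshold (adjusted p = 0.0465) and ended the call of Hist3h2ba.

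No H4 gene was lower. Hist1h4i (H4c9) rose by 0.71 ± 0.15 (adjusted p = 0.0267), from 0.37, 0.74 and 0.41 in the controls to 0.98, 1.33 and 1.32 in the sEV livers. Its groups did not overlap, and the call was lost without control 1, control 3, sEV 2 or sEV 3 (adjusted p = 0.0879, 0.0835, 0.0762 and 0.0791). Hist1h4d was at 5.30, 5.37 and 4.97 against 4.95, 5.08 and 4.90 (-0.23 ± 0.13). The other 7 lay between -0.02 and 0.30, all with overlapping groups, and the widest of them, Hist1h4m, ran from -3.05 in sEV 1 to -1.83 in sEV 3.

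The stem-loop that ends a replication-dependent histone transcript can be seen in the letters of some probes, and these probes read the very end of the processed message. It was searched as the 16 letters in capitals in the Hist1h2bf line below, with any letter allowed at 5 of them, positions 4, 7, 8, 10 and 13 counted from the 5′ end. This full form was found in 8 of the 56605 array probes (0.0141%), read on the strand of the probe, and 6 of the 8 are histone cluster probes. A run of at least 9 of the same 16 letters with no free position, broken off by an end of the probe, was found in a further 6 array probes (0.0106%), 5 of them histone cluster probes. The 9 that were kept are shown as the 30 bases around or before the match, with the matching letters in capitals.
Hist1h2bf: taacccaaaGGCTCTTTTCAGAGCCaccta
Hist2h2bb: acccaaaaGGCTCTTTTCAGAGCCacttta
Hist1h3g: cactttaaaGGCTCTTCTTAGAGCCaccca
Hist1h3i: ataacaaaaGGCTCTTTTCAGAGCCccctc
Hist1h4m: caactaaaGGCCCTTTTCAGGGCCatccaa
Hist1h2ai: cattacgaatcaccaaaGGCTCTTTTCAGA
Hist3h2ba: agcgcccccaacccaaaGGCTCTTTTCAGA
Hist1h2ab: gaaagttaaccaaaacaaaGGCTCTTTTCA
Hist1h1c: gcctcccctaacaatccaaaaGGCTCTTTT
Of these 9 probes 5 were lower, those of Hist1h2bf, Hist1h3g, Hist1h2ai, Hist1h2ab and the dimmer probe of Hist2h2bb. Another 2 were higher, those of Hist3h2ba and the dimmer probe of Hist1h1c, and Hist1h3i (-0.11 ± 0.16) and Hist1h4m (0.30 ± 0.31) did not pass. Their median was -1.11, or -0.45 with Hist1h2bf, Hist1h3g and Hist1h2ai at their bounds. Probes that held the poly(A) signal AATAAA or ATTAAA, as 13.4% of all array probes do, numbered 4 of the 53 kept, 3 lower and 1 higher, and of the 40 with neither 8 were lower and 3 higher. Lower genes were thus read by probes of each kind. Which primer the labelling kit used is not given in the labels, and the part of the transcript's end in these signals was not tested.

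RefSeq lists all 56 genes under newer symbols, and 49 of them have a promoter window (250 bases before to 50 after the start) in its table for GRCm38.p6, Hist1h2be with 2, so that there are 50 windows. Histone promoters are known for a short TATA box, CCAAT boxes and, in H2B and H2A genes, the octamer ATTTGCAT that POU2F1 binds. In both orientations, CCAAT was found in 44 of the 50 windows (88.0%) and in 37.4% of all 32851 promoter windows. TATAAA was in 29 (58.0%) against 13.6%, and ATTTGCAT in 13 (26.0%) against 1.74%. The octamer occurred in 7 of 17 H2A and 6 of 12 H2B windows and in 0 of the H1, H3 and H4 windows. The H1 promoter element AAACACA was in 5 of 6 H1 windows, against 7.18% of all windows. Windows of the 3 genes below, of different type and each lower in the sEV livers, show these letters in capitals over the 250 bases before the start.
Hist1h1b, GRCm38.p6 chr13:21780626-21780875, minus strand: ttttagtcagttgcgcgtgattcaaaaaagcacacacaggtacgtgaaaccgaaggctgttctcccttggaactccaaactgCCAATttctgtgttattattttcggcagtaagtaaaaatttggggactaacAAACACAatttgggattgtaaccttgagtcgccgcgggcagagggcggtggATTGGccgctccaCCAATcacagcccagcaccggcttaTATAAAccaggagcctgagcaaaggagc
Hist1h2ab, GRCm38.p6 chr13:23750838-23751087, plus strand: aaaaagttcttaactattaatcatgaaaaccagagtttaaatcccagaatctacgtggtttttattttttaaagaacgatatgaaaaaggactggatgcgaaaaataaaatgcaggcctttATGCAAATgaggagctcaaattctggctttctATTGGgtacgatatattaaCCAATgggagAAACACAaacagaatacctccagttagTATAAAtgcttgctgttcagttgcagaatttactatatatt
Hist1h2bg, GRCm38.p6 chr13:23571150-23571399, plus strand: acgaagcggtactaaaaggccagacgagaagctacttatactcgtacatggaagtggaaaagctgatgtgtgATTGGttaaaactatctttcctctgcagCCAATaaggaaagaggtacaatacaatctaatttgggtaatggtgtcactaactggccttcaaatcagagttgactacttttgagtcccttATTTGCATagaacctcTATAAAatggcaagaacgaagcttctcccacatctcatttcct
CCAAT was in every H1, H2A, H2B and H3 window but in only 2 of 8 H4 windows, and no H4 gene was lower. Its counts by call therefore carry the mix of histone types. By call, CCAAT was in 12 of 12 windows of lower genes and 5 of 6 of higher genes. Of those not past the threshold it was in 20 of 25. In the same order, TATAAA was in 5, 3 and 15 and ATTTGCAT in 4, 1 and 6. The 1 is that of Hist1h2be, in a single window of its 2. These matches are letters in a window and not measured binding.

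Many H2A and H2B genes are arranged head to head with a shared promoter. Windows on opposite strands overlapped in 6 pairs, and both genes were tested in 3. Hist1h2bq and Hist1h2ao, whose windows overlap by 267 bases, were both lower (at least 2.69-fold, and -1.63 on the log2 scale). The array design, however, places their probes 26386 bases apart on mm9. In the pair of Hist1h2bn and Hist1h2ak the H2B gene was higher (0.56) and the H2A gene did not pass (-0.30), on a probe with 55 shared letters. In that of Hist1h2ba and Hist1h2aa neither passed (0.28 and -0.01).

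Histone genes outside the clusters code mostly for variants, some of which, such as H3.3, are made throughout the cell cycle. Of 12 tested, 3 were lower and 0 higher, with a median of -0.21. Cenpa, the H3 variant of the centromere, which is transcribed chiefly late in the cycle, fell by 2.48 ± 0.13 (adjusted p = 0.00034), from 1.24, 1.08 and 0.77 in the controls to -1.38, -1.46 and -1.48. H2afz gave -0.89 ± 0.09 (adjusted p = 0.0036) and H2afx, the H2A variant phosphorylated at DNA breaks, -0.83 ± 0.13 (adjusted p = 0.013). H3f3a and H3f3b, which both code for H3.3, gave -0.16 ± 0.09 and 0.25 ± 0.11 and did not pass.

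Of 16 genes for making and trimming histone messages, 3 were lower and 1 higher, with a median of -0.07, and 0 of these 4 calls held with slide row as a block (median 0.01). Slbp, which codes for the protein that binds the stem-loop, differed by -0.10 ± 0.11, and Npat, the coactivator of histone transcription, by 0.12 ± 0.11. Lsm11, a subunit of the U7 snRNP that trims the message, fell by 1.01 ± 0.16 (adjusted p = 0.013). Zfp473, another factor of that step, was at least 1.69-fold lower, with no sEV array well above background. Pou2f1 fell by 0.56 ± 0.11 and Upf1, of the decay of histone messages, rose by 0.42 ± 0.08. Among 22 histone chaperones, 5 were lower and 1 higher, with a median of -0.15, and 2 of these 6 calls held with the row block. The lower ones were led by Asf1b (-2.13 ± 0.18), Chaf1b (-1.49 ± 0.16) and Chaf1a (-1.42 ± 0.22), which hand new H3 and H4 to replicated DNA, and by Hat1 (-0.57 ± 0.10). The other 16 did not pass, among them Asf1a, Hira and Atrx (-0.21, 0.12 and -0.11). Nasp, Rbbp4, Ssrp1, Supt16 and Ipo4 did not pass either (-0.18, -0.25, -0.07, 0.10 and 0.02). The 1 higher chaperone was Daxx (0.36 ± 0.08, limma adjusted p = 0.036). A difference between kinds of chaperone was not tested.

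Of the DNA replication and S phase list, 30 of 33 tested genes were lower and 0 higher, beside 7.95% lower over all genes tested. Their median was -1.13, or -1.07 with Cdc45, which was well above background on no sEV array, at its bound, and 19 of the 30 calls held with the row block. The leading falls were those of Top2a (-2.86 ± 0.15), Ccna2 (-4.40 ± 0.25), Mki67 (-3.32 ± 0.21) and Gins2 (-2.20 ± 0.15), with limma adjusted p = 0.00034, 0.00044, 0.00063 and 0.0008. In each, every sEV liver lay below every control, with Ccna2 well above background on 2 of the 3 sEV arrays. The list was chosen with results of these livers known, and its direction is no independent support for that of the histone genes.

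**Figure D4:**
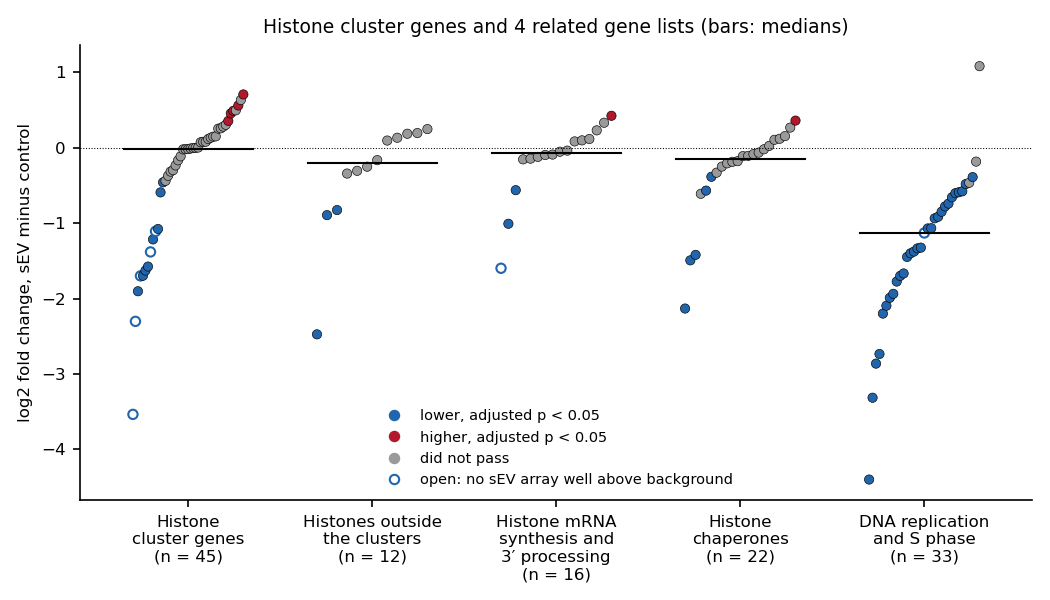
Log2 fold change (sEV minus control, vertical axis) of the tested histone cluster genes and of 4 related lists, one point per gene, coloured by call, with bars at the medians. The histone cluster genes have a lower tail below a median of -0.02, whereas nearly the whole DNA replication and S phase list lies below 0, with a median of -1.13; open points are genes that were well above background on no sEV array.

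Markers of several cell types moved with the treatment, to be read beside the 7.95% lower and 9.08% higher over all genes tested. Hepatocyte markers were bright in all livers, as the tissue label requires, with 3 of 8 higher (Tat 1.20 ± 0.12, Cps1 0.85 ± 0.09). Erythroid markers were lower for 5 of 11 tested, led by Ahsp (-3.59 ± 0.34, well above background on 1 sEV array) and Slc4a1 (-1.79 ± 0.32). Their summed linear signal was 874 to 954 in the controls and 302 to 973 in the sEV livers, in units of the array's 75th percentile and summed over probes that differ in brightness, and Hba-a1 did not pass (-0.58 ± 0.43). B cell markers were lower for 3 of 4 and higher for 1 (summed signal 1.74 to 2.07 against 1.38 to 1.63), and stellate cell markers lower for 3 of 7 (96.4 to 136.9 against 76.7 to 107.1). Neutrophil and granulocyte precursor markers were higher for 7 of 12 (153 to 188 against 224 to 241), Kupffer cell markers for 6 of 10 (105 to 143 against 161 to 178), and T and NK cell markers for 2 of 5. Sinusoidal endothelial markers were lower for 1 of 7 and cholangiocyte markers for 0 of 4. The part of these cells in the histone differences was not tested.

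Slide row moved with treatment in part, as 2 of the 3 sEV arrays lay in row 2. Row 2 held no control, so with row as a block each fold change is that of sEV 1 alone against the 3 controls, an arm of 1 liver, and sEV 2 and sEV 3 add only to the estimate of the spread. In that fit 3.67% of all genes passed, 2.38% lower and 1.29% higher, and 7 of the 13 lower and 0 of the 5 higher histone genes did so, while all 18 kept their sign. Of the lower genes well above background in sEV livers, Hist1h2ab gave -2.01, Hist1h1b -1.78, Hist1h2ao -1.75, Hist2h2bb -1.46 and Hist2h2be -1.35. Hist1h2ag gave -1.22, Hist1h2an -0.67 and Hist3h2a -0.51. The fit of row 1 alone has the same fold changes with the spread taken from the 3 controls and is no separate result. In it these 7 and Hist1h2ag (-1.22, limma adjusted p = 0.0492) passed, beside 3.06% of all genes, 2.16% of them lower and 0.895% higher, and 0 of the higher histone genes did.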

How the data were processed

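Per the labels' protocols, liver RNA was extracted with the mirVana kit and labelled with Cy3 for 1 array per liver. Per the submitters' processing notes, Agilent Feature Extraction 10.7.1.1 read the arrays. Spot intensity in the deposited scanner files is background-subtracted and detrended within each array per the file headers, with no scaling between arrays. The authors' deposited value table holds log2 values, and its scaling and centring are not given in the sources used here. Its column medians were 4.51 on all 6 arrays, and its correlation with log2 of the processed intensity was 0.9995 or more for every array (across probes, which are not independent replicates).

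Control spots and flagged spots (91 to 171 an array) were left out. No spot was saturated (0). log2 signals, averaged by probe, were centred on the array's 75th percentile. The fit over 19446 genes, without covariates, used lmFit and eBayes of limma 3.58.1 (R 4.3.3) and was tested on simulated data. The smallest p that an exact permutation test of 3 against 3 allows is 0.1. Alternatives changed background correction (normexp, offset 50), scaling, the filter, probes per gene, variance model, array weights, slide row and arrays used. Fitting each probe on its own was added after the data were seen.

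The members and lists were chosen with earlier results of these data known. Named were each called gene, the 2 highest and 2 lowest of the others, the brightest of each type, and up to 4 genes of a related list (2 of a marker list) by size of the moderated t; others named were chosen after their values were seen. Deviations of livers that share a label number correlated at 0.02, 0.16 and 0.02 across genes, so that numbers were not taken as pairs. No arrays were alike enough to be 1 sample (highest r 0.995). Figures were drawn with matplotlib 3.10.9.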

Additional observations from a re-analysis of the deposited data

How the results depend on the processing

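Under none of the 19 alternatives did a called histone gene change sign, and Hist1h1b, Hist1h2ab, Hist1h2ao, Hist1h2bg, Hist1h2bq, Hist2h2bb and Hist2h2be kept their call in every alternative that gave them a value. In place of 3312 genes called, 810 passed with no filter on dim probes, 714 with slide row as a block and 594 in row 1 alone. Lower histone genes, 13 in the report, were 8 where probes had to be well above background on all 6 arrays, since 5 of the 13 were then not tested, 7 with slide row as a block and 8 in row 1 alone. Higher histone genes, 5 in the report, were 2 with arrays scaled to their median, 2 with the replicate block and 0 with no filter. With slide row as a block, and in row 1 alone, the higher histone genes lost their calls. Unadjusted p-values under 0.05 were found for 23 of the 45 genes in the limma fit of the report, beside 6556 of all 19446 genes tested. Without the filter the H2A median was -0.13 and the H3 median -0.11, over more genes. With slide row as a block, and in row 1 alone, both of which set sEV 1 alone against the controls, the H1, H3 and H4 medians were -0.86, -0.075 and -0.092; the cause was not tested. The replicate block, on numbers that are not pairs, called 2209 genes and 11 lower histone genes and ended Hist1h1c, Hist1h2be, Hist1h2bf, Hist3h2a and Hist3h2ba. Leaving out 1 array at a time gave 1346 to 2766 genes called, 9 to 12 lower and 1 to 3 higher histone genes (1 without control 1, control 3, sEV 2 or sEV 3, and 3 without control 2 or sEV 1), and an H2A median of -0.50 to -0.21. The higher share of all calls was 40.2% with no filter, 35.2% with slide row as a block and 29.3% in row 1. Dim signal limits Hist1h2bq, Hist1h3g, Hist1h2bg, Hist1h2bf and Hist1h2ai to bounds. Their smallest log2 fold changes across the alternatives were, in that order, -0.77, -0.31, -0.32, -0.35 and -0.23, each smaller than its bound.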
